A study of Rattus norvegicus with 40 samples.

Results

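MiR-221 and miR-222 are a pair of neighbouring, related miRNAs, and 4 mature strands of them were counted in rat plasma after traumatic brain injury (TBI): rno-miR-221-3p, rno-miR-221-5p, rno-miR-222-3p and rno-miR-222-5p. They are all the names with the stem miR-221 or miR-222 among the 752 miRNAs of the count table, of which 581 had a read in any library. The pair was chosen by its measured levels: on earlier results of these same libraries it lay below the sham level on D2 and above it on D9. The differences between TBI and sham rats and the changes between the days are therefore given as a description, with no test. The levels matched that description for miR-222-3p, and did not for miR-221-3p, which lay slightly above the sham mean on both days.

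Tail vein plasma of 20 adult male Sprague-Dawley rats was collected on both D2 and D9, and each of the 40 samples gave 1 small RNA library. The sham group held 4 rats that underwent the craniotomy without an injury. The other 16 rats had a lateral fluid-percussion injury, a brief pressure pulse onto the exposed dura; 7 of them had developed epilepsy (TBI+) and 9 had not (TBI−) when monitored by video-EEG in the sixth month. The outcome was thus known only long after the blood was drawn, and 1 unprovoked seizure was enough to place a rat in the TBI+ group.

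A miRNA gene is transcribed as a hairpin, from which a 5p and a 3p strand can be cut; one of them is usually kept in the silencing complex, where its seed, bases 2 to 8, pairs with target mRNAs. MiR-221 and miR-222 are transcribed from neighbouring genes and are best known from the vessel wall, where they are abundant in endothelial and smooth muscle cells and repress, among others, the receptor Kit and the cell cycle inhibitor Cdkn1b. Blood cells and platelets also contain them, so that a plasma level does not name its source.

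The mature sequences are shown because the shared seed is what makes the 2 miRNAs a family. Capitals mark the seed, and the sequences were taken from RefSeq, build GRCr8.
rno-miR-221-3p: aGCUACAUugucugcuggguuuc
rno-miR-222-3p: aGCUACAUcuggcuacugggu
rno-miR-221-5p: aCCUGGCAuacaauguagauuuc
rno-miR-222-5p: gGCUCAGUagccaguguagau
Both 3p strands begin with the same 8 bases and carry the same seed, and none of the other mature names of RefSeq (693 names in all) carries it. The 5p strands share a seed neither with each other nor with another name. After the shared start, the longest run that both 3p strands have in common is 6 bases long.

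The hairpins show where the strands lie, with the 5p strand and then the 3p strand in capitals.
Mir221: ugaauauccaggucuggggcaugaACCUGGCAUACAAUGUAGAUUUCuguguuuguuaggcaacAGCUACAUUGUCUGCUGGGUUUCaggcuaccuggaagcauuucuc
Mir222: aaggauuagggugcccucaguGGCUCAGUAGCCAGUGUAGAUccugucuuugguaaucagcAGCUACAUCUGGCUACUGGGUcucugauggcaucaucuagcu
Both genes lie on the plus strand of chromosome X in GRCr8, with 0 annotated genes lying wholly between them. The long non-coding RNA genes LOC120099382 and LOC120099384 overlap the stretch from one to the other. Whether each hairpin lies inside either of them was not checked. No coordinates are given, since the reads were aligned to another build of the genome.

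The libraries of D2 held 404542 to 2562080 miRNA reads. On D9 the TBI libraries held 332161 to 2864890 reads, and the 4 sham libraries only 140636 to 358202. Levels are given as CPM, the reads of a strand per 1000000 miRNA reads of its library. The library numbers in the sample titles fall into 3 stretches, each with its own repeating order of groups and days, here called runs 1 to 3 in ascending order. What a number stands for was not given in the sources used here, and the ends of the runs were inferred from that order. All sham libraries of D2 and those of TBI+ rats 1 to 4 were in run 1, and the same rats' D9 libraries were in run 3. The TBI− libraries were never in the same run as the sham libraries of that day, so that for TBI− rats group and run cannot be told apart. No 2 libraries held identical counts.

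MiR-222-3p was the strand whose order reversed. On D2 it stood at 283, 426, 475 and 414 CPM in sham rats 1 to 4 (399 ± 82.1, SD, n = 4). The 7 TBI+ libraries ran from 165.1 over a median of 274 to 306 CPM (254 ± 47.8), and the 9 TBI− libraries from 134.3 over 208 to 269 CPM (202 ± 43.8). Of the 16 TBI rats, 14 lay below every sham rat, and the other 2 lay above sham rat 1 only. Averaged over rats, the TBI level was 0.562 times that of sham, a log2 fold change of −0.74 (SE 0.19, edgeR estimate). For comparison, 6.19% of the 565 miRNAs tested were called on D2 in this contrast at an adjusted p below 0.05, and the median log2 fold change over all of them was 0.09.

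On D9 the sham rats had the low values. They stood at 49.8, 185, 89.1 and 162 CPM (121 ± 62.9, n = 4), from 7, 30, 18 and 58 reads. The TBI+ libraries ran from 155 over a median of 196 to 442 CPM (263 ± 124, n = 7), and the TBI− libraries from 144.5 over 325 to 431 CPM (302 ± 96.4, n = 9). Of the 16 TBI rats, 12 lay above every sham rat, and no TBI rat lay below sham rats 1 and 3. Averaged over rats, the TBI level was 2.35 times that of sham, a log2 fold change of 1.33 (SE 0.38), where 3.51% of 541 miRNAs were called and the median of all was 0.30.

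The low sham values of D9 rest on few reads. The exact 95% Poisson interval was 20.01 to 102.6 CPM for sham rat 1 and 52.8 to 141 CPM for sham rat 3, and 124.8 to 264 and 123 to 209 CPM for rats 2 and 4; these intervals cover counting error only. The upper ends for rats 1 and 3 lay below the lowest TBI library of that day. Within each library, miR-222-3p held a mean rank of 93.3 among the miRNAs of the sham rats on D2 and of 135.3 on D9, against 108.7 and 102.4 in the TBI rats, where rank 1 is the most abundant miRNA.

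**Figure D1:**
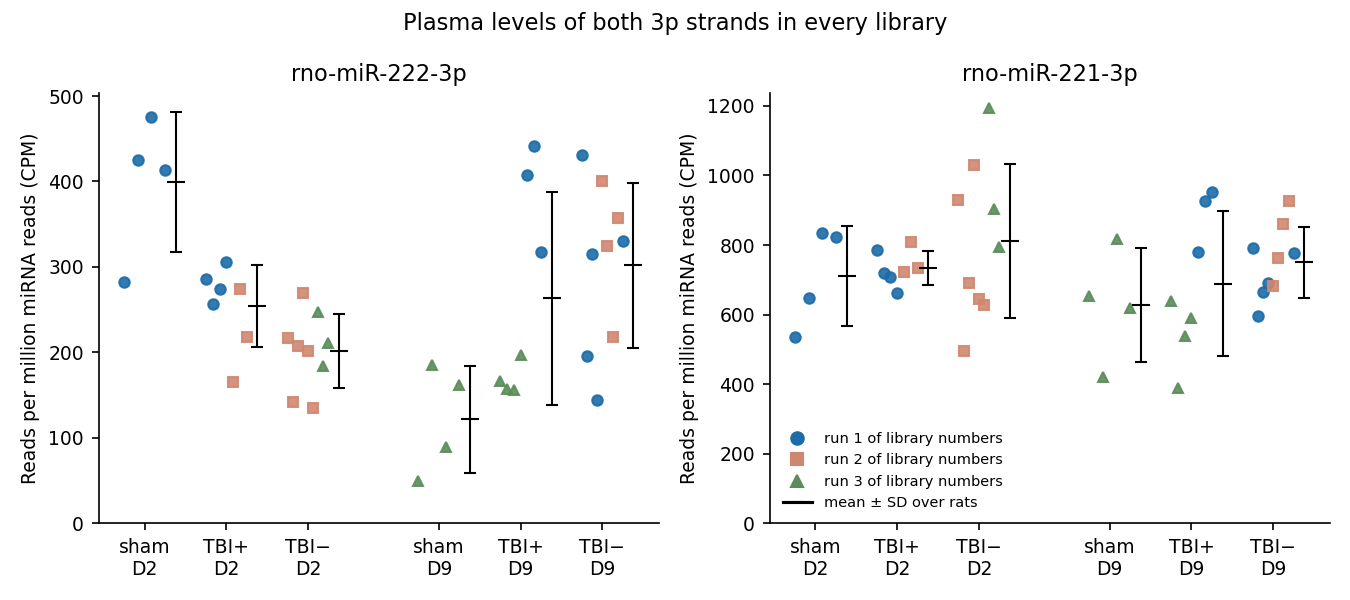
Level of miR-222-3p (left) and miR-221-3p (right) in CPM for every library, by group and day. Symbols and colours give the run of library numbers, and bars give the mean ± SD over 4 sham, 7 TBI+ and 9 TBI− rats. On D9 the 8 libraries of run 3 hold most of the low miR-222-3p values, and 4 of them are TBI+ rats.

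Compared within each rat, miR-222-3p fell from D2 to D9 in 4 of 4 sham rats, to 0.176, 0.435, 0.188 and 0.391 times the D2 level. It fell in TBI+ rats 1 to 4, to between 0.566 and 0.642 times, and rose in TBI+ rats 5 to 7, by factors of 2.47, 1.61 and 1.46. In the TBI− group it rose in 7 of 9 rats, by factors of 1.38 to 2.42, and fell in rats 4 and 7, to 0.536 and 0.882 times. The mean log2 change was −1.86 ± 0.68 (SD) in sham, −0.06 ± 0.88 in TBI+ and 0.54 ± 0.68 in TBI− rats. With the rat as a block, the change in TBI rats exceeded that in sham rats by 2.11 on the log2 scale (SE 0.47). The median of this difference over all 581 miRNAs was 0.14.

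The direction of this change went along with the run of library numbers. All 8 rats whose libraries passed from run 1 to run 3, 4 sham and 4 TBI+, fell. Of the 12 rats on the other paths, all of them injured, 10 rose. The 2 rats with both libraries counted in run 2 (TBI− rats 5 and 6) rose by factors of 1.99 and 2.42. For TBI− rat 6 the run of the D2 library is uncertain.

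Among the 8 rats on the path from run 1 to run 3, the fall was larger in the sham rats. Their mean log2 change was −1.86, against −0.73 ± 0.08 in the 4 TBI+ rats, with ratios of 0.176 to 0.435 against 0.566 to 0.642. How many other miRNAs set these 8 rats apart in this way was not counted. On D2, in run 1, the 4 TBI+ libraries lay at 256 to 306 CPM and overlapped only with sham rat 1; the log2 fold change fitted on these 8 rats was −0.49 (SE 0.26). On D9, in run 3, they lay at 155 to 196 CPM and overlapped with sham rats 2 and 4, and the log2 fold change was 0.52 (SE 0.49). The difference of the changes was 1.07 (SE 0.58). The sham libraries of that run were also the shallowest, and the part of run and depth in the result was not tested further.

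**Figure D2:**
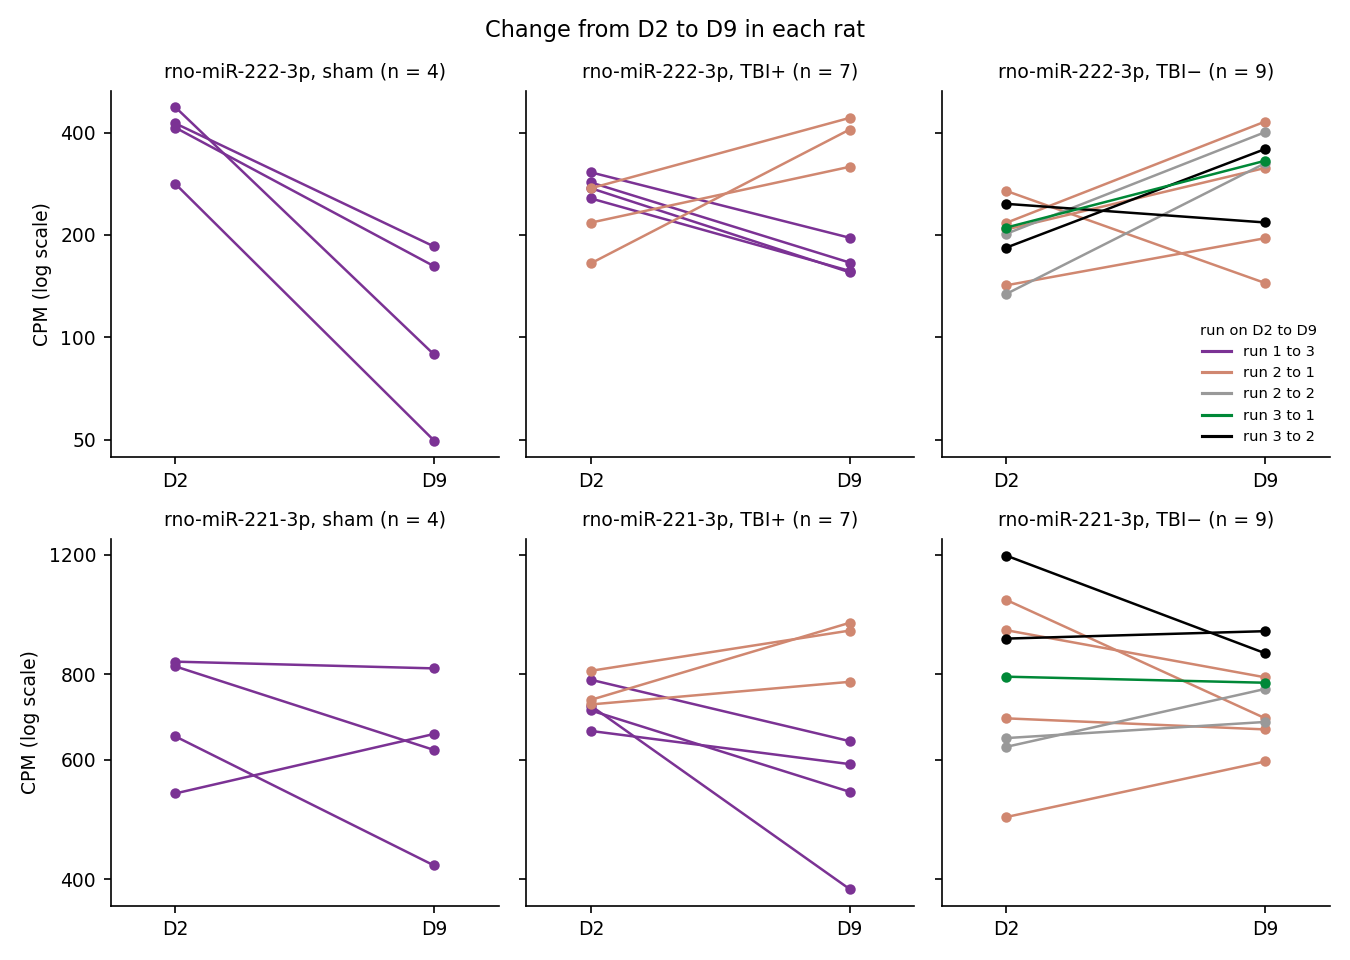
Level of miR-222-3p (top) and miR-221-3p (bottom) in each rat on D2 and D9, on a log axis; each line is 1 rat, coloured by the runs of its libraries. For miR-222-3p, all 4 sham lines and the 4 TBI+ lines from run 1 to run 3 go down, and 10 of the other 12 lines go up.

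MiR-221-3p, with the same seed, did not reverse. On D2 it stood at 535, 649, 835 and 822 CPM in the sham rats (710 ± 144.5), at 661 to 810 CPM (median 723) in TBI+ and at 494 to 1195 CPM (median 794) in TBI− rats. On D9 the sham values were 654, 419, 817 and 620 CPM (627 ± 163.1), with 387 to 953 CPM (median 639) in TBI+ and 596 to 926 CPM (median 762) in TBI− rats. The groups overlapped on both days, with 1 TBI rat below and 4 above every sham rat each time.

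The log2 fold change of miR-221-3p, TBI against sham, was 0.24 (SE 0.19) on D2 and 0.33 (SE 0.27) on D9, and the changes between the days differed by 0.09 (SE 0.43). This last value fell below 0 under 8 of 12 alternatives, to −0.25 at the lowest, among them RLE size factors, miR-28-3p scaling and DESeq2 (−0.20 each), and that of D9 turned to −0.22 (SE 0.44) in the rats of 1 run. Between D2 and D9 the level fell in 3 of 4 sham, 4 of 7 TBI+ and 5 of 9 TBI− rats. By run, all 4 TBI+ rats from run 1 to run 3 fell (0.538 to 0.894 times) and all 3 TBI+ rats from run 2 to run 1 rose (1.08 to 1.298 times), the same directions as for miR-222-3p in these 7 rats.

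The ratio of the 2 strands, reads of miR-221-3p per read of miR-222-3p, put the difference in 1 number per library that does not depend on library size. On D2 it was 1.89, 1.52, 1.76 and 1.99 in the sham rats, 2.16 to 4.38 (median 2.81) in the TBI+ rats and 3.20 to 4.92 (median 3.82) in the TBI− rats. No TBI rat reached down to the sham values. On D9 the sham values spread to 13.1, 2.27, 9.17 and 3.83, while TBI+ rats had 1.91 to 3.85 (median 3.00) and TBI− rats 1.70 to 4.77 (median 2.35). Sham rats 1 and 3 then lay above every TBI rat, and the other 2 lay among them.

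**Figure D3:**
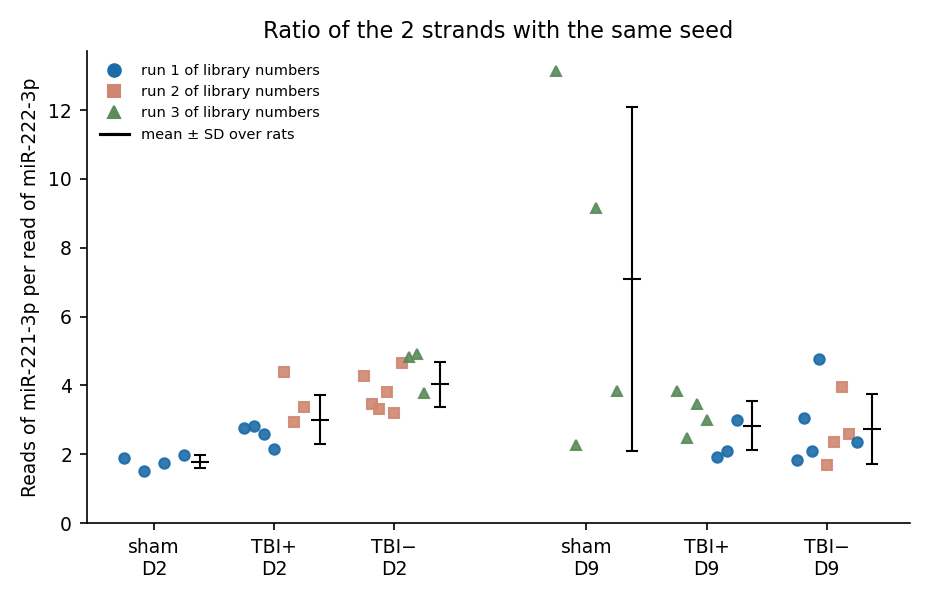
Reads of miR-221-3p per read of miR-222-3p in every library, by group and day; bars give the mean ± SD over rats. On D2 the sham values (1.52 to 1.99) lie below all TBI values, and on D9 sham rats 1 and 3 (13.1 and 9.17) lie above them.

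The 5p strands are the minor products of both hairpins here. Over all libraries miR-221-5p made up 0.490% of the reads of its hairpin, beside 35975 reads of the 3p strand, and miR-222-5p made up 1.42%, with 180 reads beside 12535. A count of 0 allows a level of up to 1.17 to 7.42 CPM on D2 and up to 1.05 to 21.3 CPM on D9, depending on the library, with a floor of 3 reads.

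MiR-221-5p had 4, 8, 3 and 8 reads in the sham libraries of D2 (4.47 to 6.73 CPM), and 12 of 16 TBI rats lay below all of them, between 0 and 4.33 CPM. The log2 fold change was −0.89 (SE 0.56), but only 3 of the 4 sham and 5 of the 16 TBI libraries had more than 3 reads. The floor of 3 reads stood at up to 7.42 CPM in a TBI library, above every sham value. On D9 the sham libraries had 0, 1, 0 and 3 reads and none exceeded the floor, so that no fold is given. MiR-222-5p had 0, 5, 9 and 1 reads in the sham libraries on D2, and 0 to 15 reads in the TBI libraries; the log2 fold change was −0.07 (SE 0.73). On D9 it had no read in any sham library and 83 reads in all in the TBI libraries, of which 14 of 16 had a read and 6 had more than 3. Those 4 sham libraries are so shallow that the difference was not detectable at this depth.

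**Figure D4:**
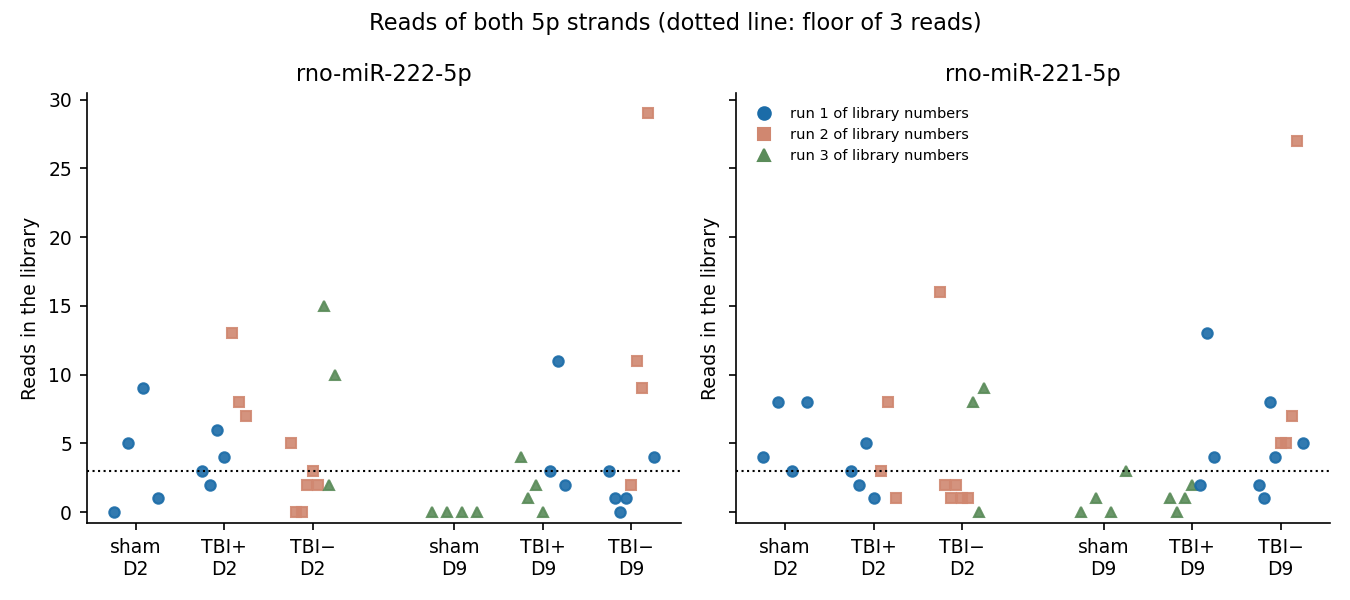
Reads of miR-222-5p (left) and miR-221-5p (right) in every library, by group and day, with the floor of 3 reads as a dotted line. MiR-222-5p has 0 reads in the 4 sham libraries of D9, and the highest count of that day, 29 reads, is in a TBI− library.

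Whether the levels differed by epilepsy outcome was a question the choice of the pair did not use, and it was tested across all miRNAs with a read by edgeR's quasi-likelihood method. None of the 4 strands passed at an adjusted p of 0.05 on either day, and neither did any other miRNA: 0% of 565 on D2, 0% of 541 on D9 and 0% of 581 for the difference of the changes between the days. At an unadjusted p below 0.05 there were 38, 22 and 31 miRNAs, none of them a member, and DESeq2 called 0, 0 and 1. MiR-222-3p differed by 0.25 on the log2 scale (TBI+ minus TBI−) on D2 (SE 0.18, adjusted p = 0.80) and by −0.14 on D9 (SE 0.30, adjusted p = 0.96). For its change between the days the difference was −0.51 (SE 0.40, adjusted p = 1).

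MiR-221-3p differed by −0.21 on D2 (SE 0.17, adjusted p = 0.80) and by −0.07 on D9 (SE 0.25, adjusted p = 0.97). The 5p strands differed by −0.93 to 0.46 on the single days, with standard errors of 0.55 to 0.62 and adjusted p-values of 0.81 to 0.89 by edgeR. The lowest adjusted p of any miRNA was 0.39 for rno-miR-128-3p on D2, 0.80 for rno-miR-449c-5p on D9 and 0.49 for rno-let-7d-3p in the change between the days, the last of which was the 1 call of DESeq2.

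The ratio of miR-221-3p to miR-222-3p differed by outcome on D2 with all rats pooled, and not within a run. The mean log2 ratio was 1.55 ± 0.32 (SD) in the 7 TBI+ and 1.99 ± 0.24 in the 9 TBI− rats, a difference of −0.44 (exact permutation test, two-sided, p = 0.0089, adjusted over 2 tests 0.018). The TBI+ values by rat were 2.75, 2.81, 2.58, 2.16, 4.38, 2.95 and 3.38 reads of miR-221-3p per read of miR-222-3p. The 4 lowest came from rats 1 to 4, whose D2 libraries were in run 1, which held no TBI− library of D2. Within run 2, counted with 3 TBI+ and 6 TBI− rats, the difference was −0.093 and did not pass (exact permutation p = 0.57, adjusted p = 0.61). The count includes TBI− rat 6, whose run on D2 is uncertain. On D9 the difference was 0.08 (exact permutation p = 0.71, adjusted p = 0.71) and −0.21 within run 1 (3 against 5 rats, exact permutation p = 0.61).

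Across the 16 TBI rats, 8 relations were examined with permutation tests. The 2 strands with the shared seed rose and fell together on D9 (Pearson r = 0.68, permutation p = 0.0025, adjusted p = 0.020; Spearman rho = 0.69, adjusted p = 0.037). Without the 2 rats farthest from the median of miR-222-3p, r was 0.70 (permutation, adjusted p = 0.028), and the adjusted p of rho rose to 0.072. Within run 1 (n = 8), r was 0.63, which did not pass (exact permutation p = 0.093, adjusted p = 0.37). On D2 r was 0.45 (permutation p = 0.081, adjusted p = 0.23; rho = 0.32). It rested on the 2 farthest rats, without which it was 0.06, although within run 2 (n = 9, TBI− rat 6 included) r was 0.79 (exact permutation p = 0.012, adjusted p = 0.093) and rho was 0.85 (exact permutation p = 0.0061, adjusted p = 0.049).

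The D2 and D9 levels of a rat were set against each other. For miR-222-3p r was −0.44 (permutation p = 0.086, adjusted p = 0.23; rho = −0.44), and −0.70 without the 2 farthest rats (permutation, adjusted p = 0.029), where rho was −0.57 and did not pass (permutation, adjusted p = 0.14). Among the 7 rats that went from run 2 to run 1, r was 0.045 (exact permutation p = 0.91), and the relation did not hold within that path. For miR-221-3p r was 0.41 (permutation p = 0.12, adjusted p = 0.24; rho = 0.58, adjusted p = 0.079).

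Lysed red cells release miRNAs into plasma, so each 3p strand was set beside the log2 ratio of miR-451-5p, a red cell miRNA, to miR-23a-3p. This index was higher on D9 than on D2 in all groups, with means of −0.52 and 1.13 in sham rats and −0.28 and 1.28 in TBI rats. Across TBI rats, r of the 3p strands with the index lay between 0.01 and 0.18 on the 2 days, and none of the 4 relations passed (permutation, adjusted p = 0.69 to 0.98). Kept as a covariate, the index left the log2 fold change of miR-222-3p at −0.72 on D2 and 1.30 on D9.

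Markers of other cells were set beside miR-222-3p. The summed level of the 2 lymphocyte markers, miR-150-5p and miR-342-3p, was 20359 to 44216 CPM in sham and 5968 to 30239 CPM in TBI rats on D2, and 8864 to 74739 and 9018 to 40582 CPM on D9. Its mean was lower in TBI rats on both days (31024 against 15798, then 28679 against 23124 CPM in sham and TBI rats). The D9 order of means rested on the highest sham library, at 74739 CPM. By medians the TBI level was the higher one on D9 (15557 against 21201 CPM in sham and TBI rats). The summed level of the 3 platelet and myeloid markers, miR-223-3p and both strands of miR-142, was 18232 to 32298 and 7260 to 25977 CPM on D2 and 7111 to 28001 and 8699 to 31260 CPM on D9. Its means turned round between the days as those of miR-222-3p did (25191 against 18405, then 15060 against 22302 CPM in sham and TBI rats). The summed red cell markers had higher means in TBI rats on both days (25893 against 27835, then 28281 against 41947 CPM). All of the lymphocyte, platelet and myeloid markers had reads. The endothelial marker miR-126a-3p lay at 1486 to 2298 CPM in sham and 854 to 2241 CPM in TBI rats on D2, and at 1145 to 3014 and 1016 to 6434 CPM on D9, and its means also turned round (1922 against 1497, then 2052 against 2599 CPM). They did not do so in the TBI+ rats of the same run as the sham rats, whose D9 mean was 1604 CPM, below sham. The part of these cell types in the result was not tested. Of the markers, miR-126a-5p, the liver marker miR-122-5p and the muscle markers miR-1-3p and miR-133a-3p were at 0 in every library. Of the 5 red cell markers listed, 4 were in the count table.

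By likeness over all 40 libraries, miR-222-3p was closer to several other miRNAs than to its own family member. Among 268 miRNAs with a mean of at least 10 CPM, the highest Spearman's rho was with rno-miR-223-3p (0.72), followed by rno-miR-128-3p (0.72), rno-miR-1306-5p (0.71), rno-miR-342-3p (0.67) and rno-miR-223-5p (0.67). MiR-221-3p came at rank 33 (rho = 0.46). MiR-223 is typical of neutrophils, monocytes and platelets, and miR-342-3p of lymphocytes. These are descriptions over libraries that share rat, day and run.

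Of these 5 neighbours, miR-223-3p and miR-1306-5p had the order of group means that miR-222-3p had, with TBI below sham on D2 and above it on D9. MiR-223-3p had means of 2601 ± 605 CPM in sham and 1822 ± 594 in TBI rats on D2, and of 1406 ± 768 and 2553 ± 942 CPM on D9, with 12 of 16 TBI rats below every sham rat on D2 and 7 of 16 above every sham rat on D9. MiR-1306-5p went from 27.4 ± 10.5 against 14.6 ± 6.65 to 5.18 ± 6.19 against 18.4 ± 11.2 CPM. Its D9 sham values were only 0 to 12.3 CPM, while the floor of 3 reads stood at 8.38 to 21.3 CPM in those libraries. Its order on D9 is therefore not established at this depth. MiR-342-3p had a lower mean in TBI rats on both days (1115 against 535, then 856 against 621 CPM). Its D9 sham mean rested on the highest library, at 2227 CPM. By medians the TBI level was the higher one on D9 (485 against 602 CPM in sham and TBI rats). With all TBI rats together, miR-128-3p was higher on both (6305 against 7224, then 2652 against 6155 CPM). So was miR-223-5p (44.7 against 46.6, then 22.3 against 49.8 CPM). Taken by outcome, this held on D2 for the TBI+ means of these 2 (9418 and 52.4 CPM), while the TBI− means (5518 and 42.2 CPM) lay below sham. On D9 the means of both outcomes lay above sham (5891 and 41.0 CPM in TBI+, 6360 and 56.5 CPM in TBI− rats). The TBI− means thus had the order that miR-222-3p had. In the TBI+ rats of the same run as the sham rats, the D9 means were 3109 and 31.2 CPM.

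MiR-221-3p was closest to other miRNAs: rno-miR-421-3p (rho = 0.58), rno-miR-10b-3p (0.56), rno-miR-223-5p (0.52), rno-miR-10b-5p (0.51) and rno-miR-10a-5p (0.51), with miR-222-3p at rank 7. Of the 5 names on each list, only miR-223-5p stood on both. MiR-10a-5p and miR-10b-5p are near-identical, and their mean levels of 63929 and 64067 CPM are too close to be told apart by the counting.

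A list of 12 other miRNAs known from the vessel wall, with endothelial miR-126a, smooth muscle miR-143 and miR-145, and the inflammatory miR-146a and miR-155 among them, gave 8 with reads; miR-126a-5p, miR-31a-5p, miR-130a-3p and miR-210-3p were at 0. None of the 8 passed in TBI against sham on D2 (edgeR, beside 6.19% of all miRNAs; 1 at an unadjusted p below 0.05, and 0 calls by DESeq2). On D9 1 of 8 passed, beside 3.51% of all. The median log2 fold change of the list was −0.01 on D2 and −0.22 on D9, beside 0.09 and 0.30 over all miRNAs. By sign alone, miR-126a-3p (−0.26 on D2, SE 0.20, and 0.46 on D9, SE 0.39) and miR-21-5p (−0.09, SE 0.18, and 0.26, SE 0.24) went from below to above the sham level as miR-222-3p did. They are named after their values were seen, and neither passed on either day. In the TBI+ rats of the same run as the sham rats, the D9 mean of miR-126a-3p lay below sham (1604 against 2052 CPM).

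The 1 call was rno-miR-146a-5p, a regulator of inflammatory signalling, which was lower in TBI rats on D9 (log2 fold change −2.13, SE 0.44, edgeR adjusted p = 0.0021). It rested on sham rat 2, with 13311 CPM beside 626, 559 and 1262 CPM in the other 3, while the TBI rats had 298 to 1807 CPM (median 775). Without that library the log2 fold change was 0.02 (SE 0.36, edgeR adjusted p = 0.97), and DESeq2 gave no p-value for this miRNA. The same library also had the highest miR-222-3p and the lowest miR-221-3p of the sham group on D9, and without it the log2 fold change of miR-222-3p was 1.47 (SE 0.42). By outcome, 0 of 8 list members passed on either day or in the change between the days (edgeR; 2, 0 and 1 at an unadjusted p below 0.05, and 0 calls by DESeq2).

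**Figure D5:**
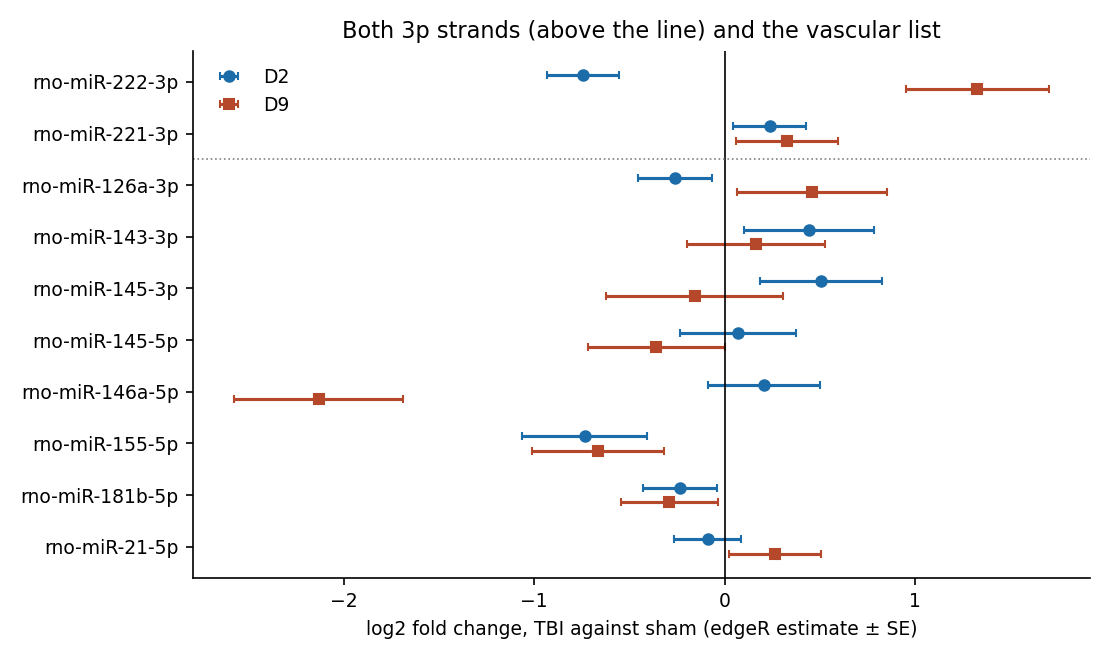
Log2 fold change of TBI against sham rats on D2 and D9 with its standard error (edgeR estimates, 16 against 4 rats), for both 3p strands and the 8 vascular list miRNAs with reads. MiR-222-3p moves from −0.74 to 1.33, miR-221-3p stays at 0.24 and 0.33, and miR-146a-5p on D9 (−2.13) rests on 1 sham library.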

How the data were processed

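Per the labels and the study's methods, small RNA of EDTA plasma was sequenced on 2 flow cells (TruSeq, 51 bases). The authors checked reads with FastQC 11.8, trimmed them with Trimmomatic 0.36, aligned them to the rat genome Rno6 with Bowtie2 and counted mature miRBase miRNAs with featureCounts. The deposited values are raw counts of reads per miRNA, used as such. CPM took each library's miRNA total as its depth, per 1000000 reads; correlations used log2(CPM + 1).

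Fits used edgeR 4.0.16 (quasi-likelihood, TMM) in R 4.3.3 on all miRNAs with a read, per day with all 20 libraries, with Benjamini-Hochberg adjustment at 0.05. The change between days was fitted over 40 libraries with the rat, which the titles give for both days, as a block; deviations of the 2 libraries of a rat had a median correlation of −0.06. The test was tested on simulated data. DESeq2 1.42.0 was an alternative; further alternatives were other scalings, filterByExpr, covariates, pseudocounts, 1 run, and rats left out. Run as a covariate in TBI against sham was added after seeing the data. Python 3.11.15 and scipy 1.17.1 did the permutations (exact, or 100000 resamples).

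The members and lists were chosen with earlier results of these data known. Named are the 4 members, the 5 miRNAs closest to each 3p strand, list members past the test, and the miRNA with the lowest adjusted p by outcome. Of 752 names, 685 matched RefSeq. Replicates are separate rats; how their samples were grouped for extraction and library preparation was not given in the sources used here.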

Additional observations from a re-analysis of the deposited data

Results flagged for a closer look

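Each strand was checked for a rat far from the rest of its group and day, in 23 groups that held any spread, of which chance alone flags about 1 in 20. In 1 group a rat stood apart: miR-222-5p on D2 was 10.9 CPM (15 reads) in TBI− rat 7, and its gap to the next rat was 0.537 of the group's range, above the limit of 0.493 for 9 rats. No library of miR-222-3p or miR-221-3p stood apart in this way, and the spread of the sham rats on D9 stayed under the limit for 4 rats.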

How the results depend on the processing

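The described log2 fold changes of miR-222-3p, TBI against sham, kept their sign under all alternatives tried. With only the sham and TBI+ rats of 1 run, the D9 value of miR-222-3p fell from 1.33 to 0.52, that of miR-221-3p turned from 0.33 to −0.22, and the difference between the days for miR-222-3p fell from 2.11 to 1.07. With run as a covariate the D9 values were 0.56 and −0.12. Leaving out each sham rat gave −0.92 to −0.63 (D2), 1.10 to 1.52 (D9) and 1.94 to 2.37 (difference) for miR-222-3p, and 0.08 to 0.33, 0.03 to 0.44 and −0.03 to 0.33 for miR-221-3p. Over the edgeR scalings, the median over all miRNAs ran from 0.09 (miR-28-3p) to 0.30 (TMM) on D9, and miR-222-3p stood 0.96 to 1.06 above it. By DESeq2 the median was −0.38, and miR-222-3p stood 1.56 above it.

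By outcome, the count of called miRNAs on D2 was 1 with run as a covariate, 3 with the animal number as a replicate block, and 2 without TBI− rat 2 (0 to 2 over all rats left out). On D9 it stayed at 0. For the change it was 1 by DESeq2 and 6 without TBI+ rat 7 (0 to 6). No member was among these calls. Animal numbers do not pair TBI+ with TBI− rats (median correlation of deviations −0.0046 on D2 and 0.06 on D9); beyond these 3 calls, the block ended that of miR-146a-5p on D9. Without the rat as a block, the differences of the changes were 2.08 (TBI against sham) and −0.41 (by outcome) for miR-222-3p. Uncalled differences by outcome turned sign with run as a covariate: miR-221-3p to 0.033 on D2 and 0.43 on D9, miR-222-3p to 0.53 on D9 and 0.087 for the change, and miR-222-5p to 0.76 on D9. Scaled to miR-28-3p, they turned to 0.06 (miR-221-3p) and 0.0065 (miR-222-3p) on D9. The change of miR-221-3p, 0.028, turned to −0.019 (RLE), −0.072 (library totals), −0.0068 (miR-28-3p) and −0.014 (DESeq2), and to −0.10 to 0.12 with a rat left out; on D9 its difference reached 0.0026 without TBI+ rat 2 (−0.25 to 0.0026).

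Within 1 run the log2 ratio differed by −0.093 on D2, no longer past the threshold, and by −0.21 on D9. Correlations with the red cell index on D2 turned to −0.24 (miR-221-3p) and −0.19 (miR-222-3p) with TMM factors and to −0.048 (miR-222-3p) within 1 run, and that of miR-221-3p on D9 to −0.11 without the 2 farthest rats. That of miR-221-3p with miR-222-3p on D9 fell to 0.63 within 1 run, and that of miR-222-3p between the days became −0.70 without the 2 farthest rats and 0.045 within 1 run. The vascular list had 0 calls on D9 without sham rat 2 (0 to 1 over the rats left out) and 0 by DESeq2, which gave miR-146a-5p no p-value; its adjusted p was 0.059 in the rats of 1 run, 0.30 with run as a covariate and 0.79 with the animal number as a block. The cause of these shifts was not tested. Depth limits the 5p strands and the sham rats of D9; 5p strands have no value against sham rats on D9 or between the days.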
